A study of Mus musculus with 6 samples.

Results

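The genes of the transforming growth factor beta (TGF-β) ligands, their receptors and the latent TGF-β binding proteins (LTBPs) were examined in bulk RNA-seq of mandibular- and femur-derived bone marrow monocytes. The members were 3 ligand genes (Tgfb1, Tgfb2 and Tgfb3), 3 receptor genes (Tgfbr1, Tgfbr2 and Tgfbr3) and 4 LTBP genes (Ltbp1, Ltbp2, Ltbp3 and Ltbp4), found by gene symbol as 10 of the 57010 rows of the count table. All 10 passed the filter on low counts, as 10 of 18114 tested genes. The femur group (libraries S13, S15 and S18) and the mandible group (libraries S16, S19 and S23) both came from C57BL/6 mice (C57Bl/6J in the study's methods), 1 year old, with no engineered allele and no treatment of the animals named. In both groups the cells were the flow-through of a negative selection, in which antibodies and magnetic beads held back other marrow cells, so that any cell the antibodies did not bind stayed in the sample. The methods name male and female mice for the study as a whole, and the sources used here give neither the sex nor the animal of a single library, nor whether animals were pooled, and p-values therefore measure the spread between these libraries. The comparison asked how the monocytes of the jaw and of a long bone, which are precursors of osteoclasts, differ in their genes.

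TGF-β is made as a precursor whose N-terminal part stays bound to the mature dimer after cleavage and keeps it latent. In most cells this latent complex is tied by disulfide bonds to an LTBP, which is secreted with it and anchors it in the extracellular matrix on fibrillin microfibrils and fibronectin. Integrins and proteases release the ligand, which binds TGFBR2, and TGFBR2 then recruits and phosphorylates TGFBR1, the kinase that activates SMAD2 and SMAD3. Bone matrix is a large store of latent TGF-β, and osteoclasts free it during resorption.

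Of the 10 members, 6 were called higher in mandibular-derived monocytes (Tgfb2, Tgfb3, Tgfbr2, Tgfbr3, Ltbp3 and Ltbp4), by the quasi-likelihood test of edgeR with Benjamini-Hochberg adjustment over all tested genes. A call needed a value under 0.05 and at least a 2-fold difference. Of all tested genes 5.18% were called, 3.88% higher and 1.3% lower. In 7 members the libraries of the sites did not overlap, 6 with the mandible above and 1 with it below, as in 24.2% of all tested genes in either direction. No member was called lower in this fit, nor by DESeq2 or limma-voom. Ltbp1 was lower in the mandible with an unadjusted p under 0.05, and it was called lower by edgeR after a correction for gene length. The main ligand gene Tgfb1, the type I receptor gene Tgfbr1, and Ltbp1 and Ltbp2 were not called. The members' median log2 fold change was 1.41, against -0.038 over all tested genes.

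The promoters of the members are shown as the 300 bases from 250 before to 50 after the start of the gene in RefSeq (GRCm38.p6), where 8 of the 10 members had an entry. Tgfb3 and Tgfbr3 had none. Both ligand genes with an entry are printed, since Tgfb1 was not called and Tgfb2 was called higher, together with Tgfbr2. Of the LTBP genes, Ltbp3 and Ltbp4, both called higher, are printed with Ltbp1, which had the highest mean level per length in the femur. Capitals mark matches on either strand to CAGAC (bound by SMAD3 and SMAD4), TGANTCA (AP-1), GGGCGG (the GC box), TATAAA (the TATA box) and TGTGGT (RUNX), and matches that share bases run together.
Tgfb1, chr7:25686752-25687051, plus strand: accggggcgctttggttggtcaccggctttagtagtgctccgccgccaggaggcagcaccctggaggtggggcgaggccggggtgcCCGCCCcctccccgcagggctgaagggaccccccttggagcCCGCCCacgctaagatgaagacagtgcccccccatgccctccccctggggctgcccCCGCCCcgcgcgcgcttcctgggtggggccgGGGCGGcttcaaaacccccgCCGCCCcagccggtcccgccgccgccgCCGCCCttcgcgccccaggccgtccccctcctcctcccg
Tgfb2, chr1:186705940-186706239, minus strand: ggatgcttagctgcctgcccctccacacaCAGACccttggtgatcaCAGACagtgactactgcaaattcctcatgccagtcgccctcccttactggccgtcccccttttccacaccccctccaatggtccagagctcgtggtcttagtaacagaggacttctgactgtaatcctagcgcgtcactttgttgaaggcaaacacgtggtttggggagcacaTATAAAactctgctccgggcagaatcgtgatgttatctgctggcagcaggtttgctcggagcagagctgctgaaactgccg
Tgfbr2, chr9:116175314-116175613, minus strand: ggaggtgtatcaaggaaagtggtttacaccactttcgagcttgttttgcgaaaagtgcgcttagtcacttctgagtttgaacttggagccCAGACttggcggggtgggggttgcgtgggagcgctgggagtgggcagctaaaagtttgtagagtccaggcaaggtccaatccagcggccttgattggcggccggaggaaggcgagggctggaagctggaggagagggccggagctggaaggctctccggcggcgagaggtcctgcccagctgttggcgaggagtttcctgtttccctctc
Ltbp1, chr17:75005279-75005578, plus strand: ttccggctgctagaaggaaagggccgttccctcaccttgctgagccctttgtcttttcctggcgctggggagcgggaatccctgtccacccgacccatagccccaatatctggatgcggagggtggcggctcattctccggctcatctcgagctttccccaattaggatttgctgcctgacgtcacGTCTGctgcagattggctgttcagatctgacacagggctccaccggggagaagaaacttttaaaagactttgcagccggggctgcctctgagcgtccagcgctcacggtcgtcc
Ltbp3, chr19:5740650-5740949, plus strand: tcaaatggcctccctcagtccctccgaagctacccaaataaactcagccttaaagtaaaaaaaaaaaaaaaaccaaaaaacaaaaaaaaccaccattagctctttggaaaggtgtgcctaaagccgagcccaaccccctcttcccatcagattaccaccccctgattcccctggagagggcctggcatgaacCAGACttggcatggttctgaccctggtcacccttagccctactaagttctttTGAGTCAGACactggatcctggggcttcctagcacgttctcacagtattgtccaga
Ltbp4, chr7:27337563-27337862, minus strand: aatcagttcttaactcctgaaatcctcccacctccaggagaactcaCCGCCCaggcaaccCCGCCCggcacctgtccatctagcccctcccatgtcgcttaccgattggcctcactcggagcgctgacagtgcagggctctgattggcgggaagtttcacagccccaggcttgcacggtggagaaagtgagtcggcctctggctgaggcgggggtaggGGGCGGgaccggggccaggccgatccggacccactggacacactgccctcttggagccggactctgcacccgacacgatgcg

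The Tgfb1 promoter was 77.0% G and C, more than 97.6% of the 32851 promoters in the table, and held 6 GC boxes and no match to the other motifs. The Tgfb2 promoter was 54.3% G and C, near the median of 52.7%, and held the only TATA box among the members' windows and 2 CAGAC matches. Ltbp3 held 1 AP-1 match that shares bases with 1 of its 2 CAGAC matches, and the window was 48.0% G and C. Tgfbr2 and the printed start of Ltbp1 held 1 CAGAC match each, and the printed start of Ltbp4 held 3 GC boxes. The window of the other Ltbp1 start (chr17:75178531-75178830) held 2 CAGAC matches and 2 TGTGGT matches, the only RUNX matches among the members' windows. The windows of the other Ltbp4 starts, which lie downstream and overlap each other, were 80.3% and 81.3% G and C. Of all promoters, 49.6% held CAGAC, 7.81% TGANTCA, 35.7% GGGCGG, 13.6% TATAAA and 16.8% TGTGGT, so these matches are common and describe the sequence only.

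The libraries held 15718782 to 25371474 counts on genes. Levels are given as counts per 1000000 after TMM scaling (CPM), and as reads per kilobase per 1000000 (RPKM) wherever different genes are compared. A count of 0 allows up to 3 counts, 0.133 to 0.172 CPM in these libraries, and this limit covers counting error only. Mandible library S23 differed from the other 5 in sex-linked genes, with Xist, which silences one X chromosome in female cells, at 1441 CPM against at most 0.553 CPM and with no count of 4 Y-linked genes that the other 5 libraries, all 3 of the femur among them, expressed. Femur library S15 stood apart from S13 and S18 by a lower neutrophil signal, 3655 CPM over 8 markers against 32429 and 23484 CPM. Values without these libraries are given where they change a result.

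Markers of the labelled cell type were read in all libraries. The 10 monocyte and macrophage markers, led by Lyz2, Ccr2 and Mpeg1, summed to 6735 to 13546 CPM in the femur and 6166 to 10962 CPM in the mandible, and none was called in either direction. Markers of other cells moved with the site. The 14 mesenchymal and osteoblast markers summed to 343 to 473 CPM in the femur and 3171 to 5365 CPM in the mandible, and 10 of them were called higher. Of the 14, 12 had a log2 fold change above 0. Cxcl12 (-1.42) and Lepr (-0.44) went the other way, and neither was called. Cxcl12 was at 243, 149 and 178 CPM in the femur and 34.7, 57.7 and 121 CPM in the mandible. The 8 markers of dental epithelium and odontoblasts summed to 0.221 to 4.56 CPM in the femur and 5792 to 11304 CPM in the mandible, with 7 called higher. The 6 mural and smooth muscle markers summed to 4.37 to 19.7 CPM against 206 to 527 CPM, with 2 called higher. In the opposite direction, the 8 megakaryocyte and platelet markers summed to 574 to 921 CPM in the femur and 74.4 to 109 CPM in the mandible, with 7 called lower. The 6 erythroid markers summed to 1136, 167 and 217 CPM in femur libraries S13, S15 and S18 and to 56.9 to 101 CPM in the mandible, with 4 called lower. The neutrophil sums overlapped, 3655 to 32429 CPM against 3820 to 10198 CPM, and 1 of 8 markers was called lower. Endothelial markers summed to 59.2 to 75.3 and 37.7 to 55.8 CPM, with 1 of 6 tested called lower, and lymphoid markers to 36.4 to 112 and 34.2 to 74.0 CPM, with none called. Except for the endothelial marker Cldn5, which had no count in the femur, no marker was at 0 in all libraries of a site. In these bulk samples, fewer cells of a type and less RNA per cell cannot be told apart, and the part of these other cells in the members' differences was not tested.

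**Figure D1:**
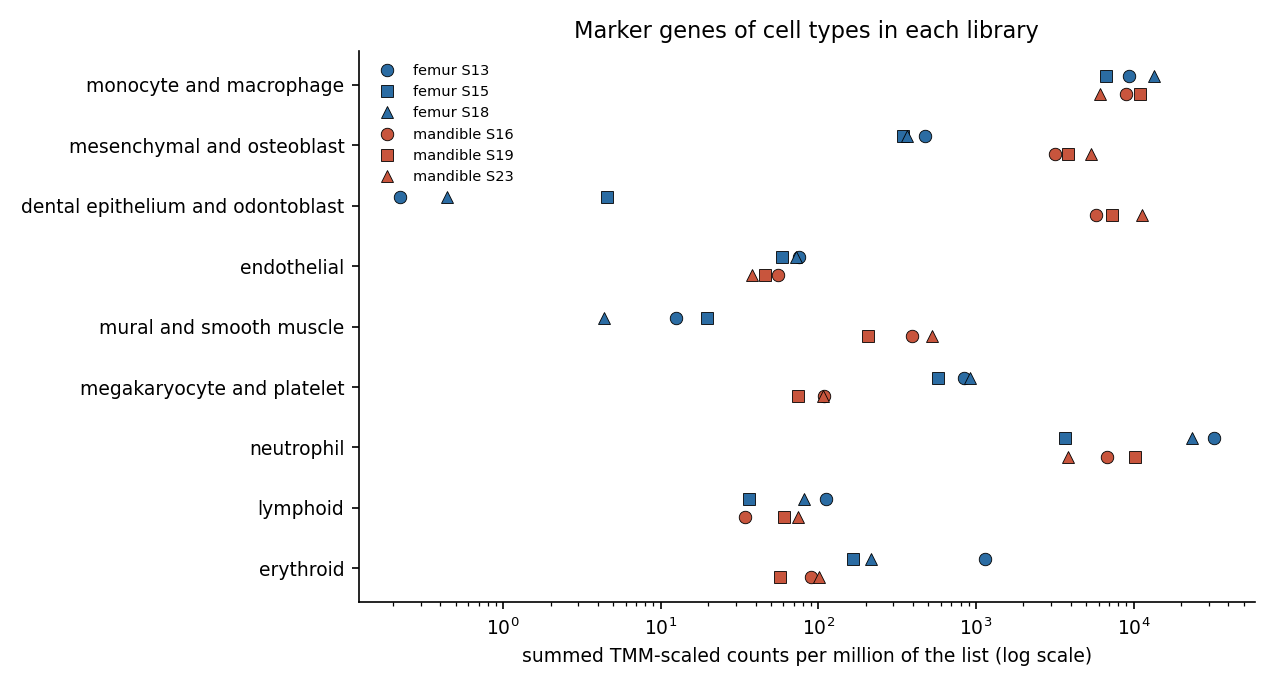
Summed TMM-scaled CPM of each list of marker genes (log scale) in the 3 femur libraries (blue) and the 3 mandible libraries (red). The monocyte, neutrophil and lymphoid sums overlapped between sites. The mesenchymal, dental and mural sums were higher in all 3 mandible libraries, and the megakaryocyte, erythroid and endothelial sums were lower.

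Among the ligands, Tgfb1 overlapped between the sites, and Tgfb2 and Tgfb3, near the limit of detection in 2 of the 3 femur libraries, were called higher in the mandible. Tgfb1, the isoform made by most blood cells and platelets, lies on chromosome 7 from 25687002 to 25705077 of GRCm38 on the plus strand. It was measured at 134, 183 and 178 CPM in femur libraries S13, S15 and S18 and at 199, 190 and 170 CPM in mandible libraries S16, S19 and S23. The groups overlapped, since S23 lay below S15 and S18. The difference on the log2 scale was 0.18 (SE 0.25, Benjamini-Hochberg adjusted p = 0.84, edgeR, exact two-sided permutation test p = 0.4).

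Tgfb2, an isoform of mesenchymal and epithelial development, lies on chromosome 1 from 186622792 to 186705989 on the minus strand. Its counts were 3, 42 and 4 in the femur libraries S13, S15 and S18, or 0.166, 1.94 and 0.177 CPM. In the mandible it was measured at 3.15 CPM in S16, 16.8 CPM in S19 and 40.7 CPM in S23. All 3 mandible libraries lay above the femur, with S16 close to femur S15 and S23 far above the others. On the log2 scale the difference was 4.71, a fitted fold of 26.2 (SE 1.10, Benjamini-Hochberg adjusted p = 0.030, edgeR). The call did not hold without femur S13 (adjusted p = 0.11), femur S18 (0.10), mandible S19 (0.10) or mandible S23 (0.16, edgeR), nor under limma-voom (0.22) or without normalization factors (0.051, over all alternatives 4.2e-12 to 0.22), and the log2 fold change ran from 3.64 without S23 to 6.79 without femur S15.

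Tgfb3, an isoform best known from palate fusion, lies on chromosome 12 from 86056745 to 86079041 on the minus strand. Femur libraries S13, S15 and S18 held 7, 44 and 4 counts, or 0.387, 2.03 and 0.177 CPM. Mandible libraries S16, S19 and S23 were at 15.1, 28.2 and 29.6 CPM, each above every femur library. Its log2 fold change was 4.80, a fitted fold of 27.8 (SE 0.80, Benjamini-Hochberg adjusted p = 0.0048, edgeR). The call held without any 1 library, and the value was 6.39 without femur S15, the femur library with the most reads of both Tgfb2 and Tgfb3.

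**Figure D2:**
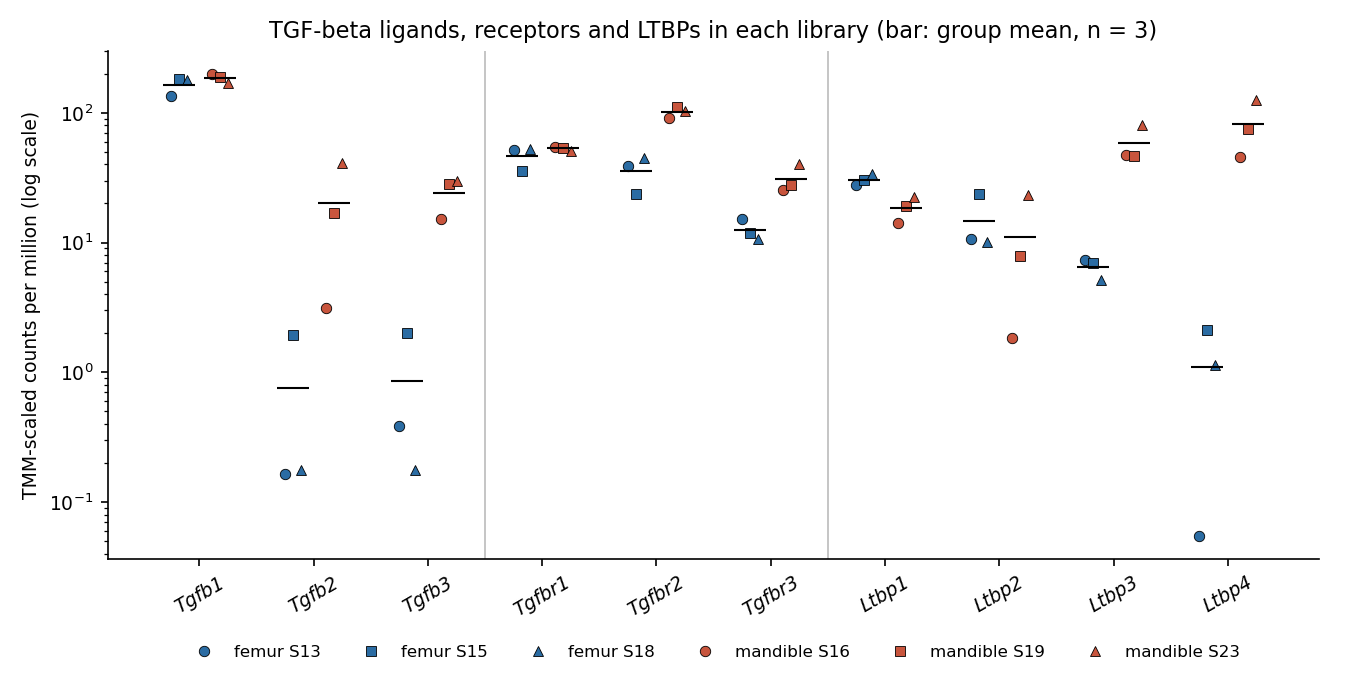
TMM-scaled CPM (log scale) of the 10 members in each library, femur in blue and mandible in red, with the group mean as a bar. The mandible libraries lay above the femur libraries for Tgfb2, Tgfb3, Tgfbr2, Tgfbr3, Ltbp3 and Ltbp4, below them for Ltbp1, and overlapped them for Tgfb1, Tgfbr1 and Ltbp2.

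Among the receptors, the type I gene overlapped between the sites, and the type II and type III genes were called higher in the mandible. Tgfbr1, the signalling kinase, lies on chromosome 4 from 47353222 to 47414931 on the plus strand. Its level was 51.8, 35.5 and 53.0 CPM in the femur and 54.9, 53.2 and 51.1 CPM in the mandible. Femur S15 was the low library and the remaining 5 lay within 51.1 to 54.9 CPM. The log2 fold change of 0.18 (SE 0.26, Benjamini-Hochberg adjusted p = 0.83, edgeR) became -0.025 without femur S15.

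Tgfbr2, which binds the ligand, lies on chromosome 9 from 116084293 to 116175360 on the minus strand. It was at 38.7, 23.8 and 44.8 CPM in the femur and at 91.9, 112 and 103 CPM in the mandible, with no overlap. Its log2 fold change was 1.51, a fitted fold of 2.85 (SE 0.29, Benjamini-Hochberg adjusted p = 0.010, edgeR). It did not pass the threshold without mandible S19 (adjusted p = 0.076) or after a correction for gene length (0.11, edgeR), against 3.9e-05 to 0.11 over all alternatives.

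Tgfbr3 encodes betaglycan, a co-receptor without a kinase that presents TGF-β, TGF-β2 in particular, to TGFBR2. It lies on chromosome 5 from 107106570 to 107289629 on the minus strand. Femur libraries were at 15.2, 11.8 and 10.6 CPM and mandible libraries at 25.5, 27.5 and 40.3 CPM, so that each mandible library lay above the femur. For betaglycan the log2 fold change was 1.31, a fitted fold of 2.48 (SE 0.34, Benjamini-Hochberg adjusted p = 0.047, edgeR). This call stood close to the threshold and did not hold without any 1 of the 6 libraries S13, S15, S18, S16, S19 and S23, with edgeR adjusted p-values of 0.061 to 0.21, nor after the length correction (0.15).

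The LTBPs fell into genes with reads mostly in the mandible and genes with as many or more in the femur. Ltbp4 lies on chromosome 7 from 27305136 to 27337692 on the minus strand and encodes an LTBP required for elastic fibre assembly. Femur libraries S13, S15 and S18 held 1, 46 and 26 counts, or 0.055, 2.12 and 1.15 CPM. Mandible libraries S16, S19 and S23 were at 45.4, 75.1 and 126 CPM, with no overlap between sites. The log2 fold change of 6.18 was the largest of the 10 members in the fit of all 6 libraries, a fitted fold of 72.5 (SE 0.78, Benjamini-Hochberg adjusted p = 0.00082, edgeR). It ran from 5.66 without femur S13 to 6.96 without femur S15 and was called each time.

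Ltbp3, an LTBP that carries all 3 isoforms and whose loss affects bone and teeth, lies on chromosome 19 from 5740904 to 5758532 on the plus strand. It was at 7.29, 6.91 and 5.17 CPM in the femur and at 46.9, 46.6 and 80.4 CPM in the mandible. The groups did not overlap, and the spread within the femur was small beside the difference. The difference of 3.17 on the log2 scale was a fitted fold of 8.98 (SE 0.34, Benjamini-Hochberg adjusted p = 0.00036, edgeR), and Ltbp3 was called under all 14 alternatives, the length correction included.

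Ltbp1, which binds the latent complexes of all isoforms and is made by platelets and fibroblasts among other cells, lies on chromosome 17 from 75005568 to 75392512 on the plus strand. Its level was 27.9, 30.1 and 33.7 CPM in the femur and 14.2, 19.04 and 22.5 CPM in the mandible. Every mandible library lay below every femur library, as in 11.5% of all tested genes. Its log2 fold change was -0.72 (SE 0.31, edgeR unadjusted p = 0.038, adjusted p = 0.26), so the difference did not pass the test. It was called lower after the length correction (log2 fold change -1.36, adjusted p = 0.035, against 0.035 to 0.63 over all alternatives, edgeR). The megakaryocyte and platelet markers were lower in the same mandible libraries, and their part was not tested.

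Ltbp2, an LTBP that binds fibrillin but not latent TGF-β, lies on chromosome 12 from 84783212 to 84876532 on the minus strand. The femur libraries were at 10.6, 23.7 and 10.1 CPM and the mandible libraries at 1.85, 7.88 and 23.4 CPM. Femur S15 and mandible S23 were the high libraries of their sites and close to each other, and the spread within the mandible exceeded the difference between sites. For Ltbp2 the log2 fold change was -0.42 (SE 0.72, Benjamini-Hochberg adjusted p = 0.87, edgeR), and it ran from -1.66 without mandible S23 to 0.082 without mandible S16. An antisense gene, D030025P21Rik, shares 764 exon bases with Ltbp2 but held 22 counts in all, against 1546 for Ltbp2.

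**Figure D3:**
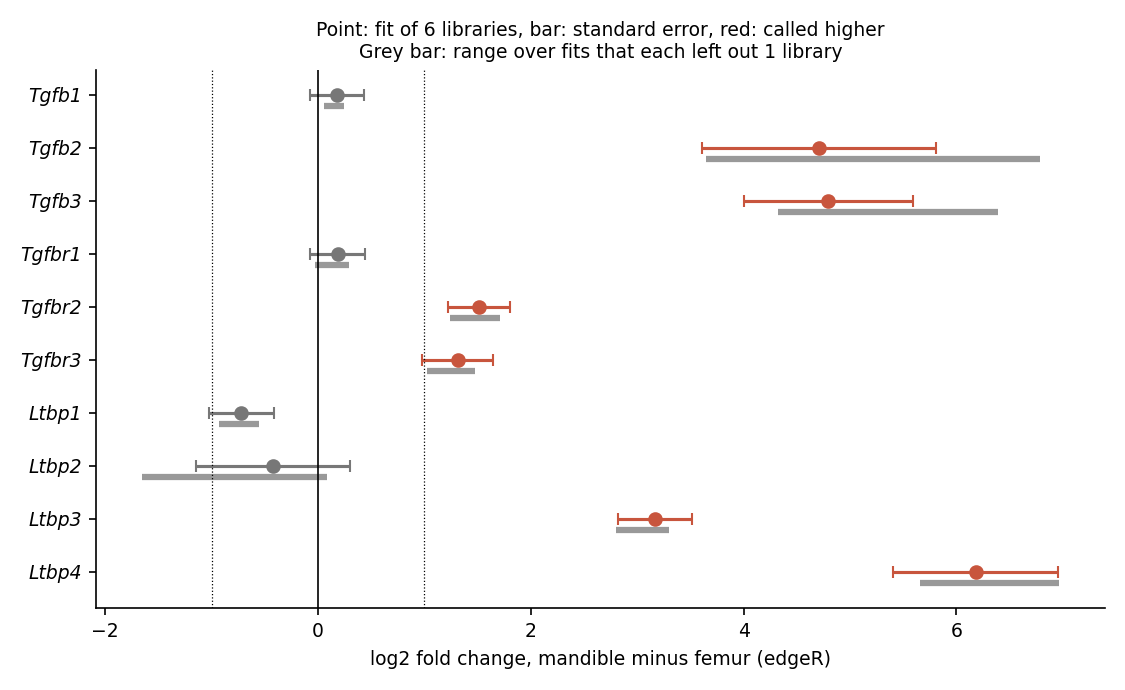
Log2 fold change of each member, mandible minus femur, from edgeR (points, red where called higher) with its standard error, and the range over fits that each left out 1 library (grey bars). The values ran from -0.72 for Ltbp1 to 6.18 for Ltbp4, and the grey bars of Tgfbr1 and Ltbp2 crossed 0.

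The order of the members changed between the sites. Levels were compared between genes per length, in RPKM as mean ± SD of 3 libraries. In the femur Tgfb1 stood alone at the top with 32.7 ± 5.36 RPKM, followed by Tgfbr1 (7.15 ± 1.497) and Tgfbr2 (4.37 ± 1.32), whose ranges overlapped. Ltbp1 came next at 2.86 ± 0.270 RPKM, and Tgfbr3, Ltbp2 and Ltbp3 lay between 1.91 and 0.712 RPKM. Tgfb3, Ltbp4 and Tgfb2 were at the bottom with 0.255, 0.171 and 0.131 RPKM, and their ranges overlapped.

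In the mandible Tgfb1 was again highest, at 37.0 ± 2.96 RPKM. Ltbp4, next to last in the femur, came second by its mean of 12.7 ± 6.34 RPKM, level with Tgfbr2 at 12.5 ± 1.21 RPKM. Ltbp4 lay above Tgfbr2 in S23 only (19.6 against 12.6 RPKM). It lay below in S16 (7.03 against 11.2 RPKM) and S19 (11.6 against 13.6 RPKM). Tgfbr1 (8.13 ± 0.292 RPKM), Tgfb3 (7.18 ± 2.36 RPKM), Ltbp3 (6.39 ± 2.14 RPKM), Tgfbr3 (4.75 ± 1.22 RPKM) and Tgfb2 (3.49 ± 3.28 RPKM) followed, each overlapping its neighbour. Ltbp1 and Ltbp2 were last, at 1.74 ± 0.391 and 1.35 ± 1.36 RPKM.

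A share within a family does not depend on library scaling. Tgfb1 made up 99.5, 97.5 and 99.8% of the ligands' reads per kilobase in the femur libraries and 88.8, 77.0 and 68.2% in the mandible libraries S16, S19 and S23. Its mean share was thus 98.9% ± 1.24 in the femur and 78.0% ± 10.3 in the mandible (SD, n = 3). Tgfb3 took 14.9% ± 4.24 and Tgfb2 7.11% ± 6.56 of the ligand reads in the mandible, against 0.729% ± 0.777 and 0.364% ± 0.463 in the femur. Tgfb1 therefore remained the most read ligand gene in all 6 libraries.

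Tgfbr1 was the most read receptor gene in each femur library and Tgfbr2 in each mandible library. The share of Tgfbr1 was 53.3% ± 0.323 in the femur, with all 3 libraries within 52.9 to 53.5%, and 32.2% ± 3.21 in the mandible. Tgfbr2 took 32.1% ± 3.69 and 49.2% ± 2.87. The share of Tgfbr3 overlapped between sites, 14.6% ± 3.64 against 18.6% ± 3.93. The ratio of Tgfbr2 to Tgfbr1, chosen after the values were seen, was 0.597, 0.536 and 0.675 in the femur and 1.33, 1.67 and 1.61 in the mandible.

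The make-up of the LTBPs was turned over, though a lower share need not mean a lower level. The levels of Ltbp2 overlapped between the sites, and Ltbp1 was called lower only after the length correction. Ltbp1 and Ltbp2 together held most of the LTBP reads per kilobase of the femur, with 52.7% ± 10.3 and 31.3% ± 9.88, and little of those of the mandible, with 8.35% ± 1.80 and 5.05% ± 3.46. Ltbp4 went from 0.181, 4.82 and 3.47% in the femur libraries to 51.1, 59.6 and 58.6% in the mandible libraries, and Ltbp3 from a mean of 13.1% ± 3.38 to 30.2% ± 6.43. In 9 of the 10 shares the groups did not overlap, all but that of Tgfbr3, against 24.2% of single tested genes. Shares within a family are not independent, since a higher share of some members lowers that of the others. Each family holds members already called higher, so this count is not separate evidence. The exact two-sided permutation test gave p = 0.1 for each of the 9, the smallest that 3 against 3 libraries allow. For Tgfbr3 the same exact two-sided permutation test gave p = 0.4. Adjusted over the 10 shares, these were 0.11 and 0.40.

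**Figure D4:**
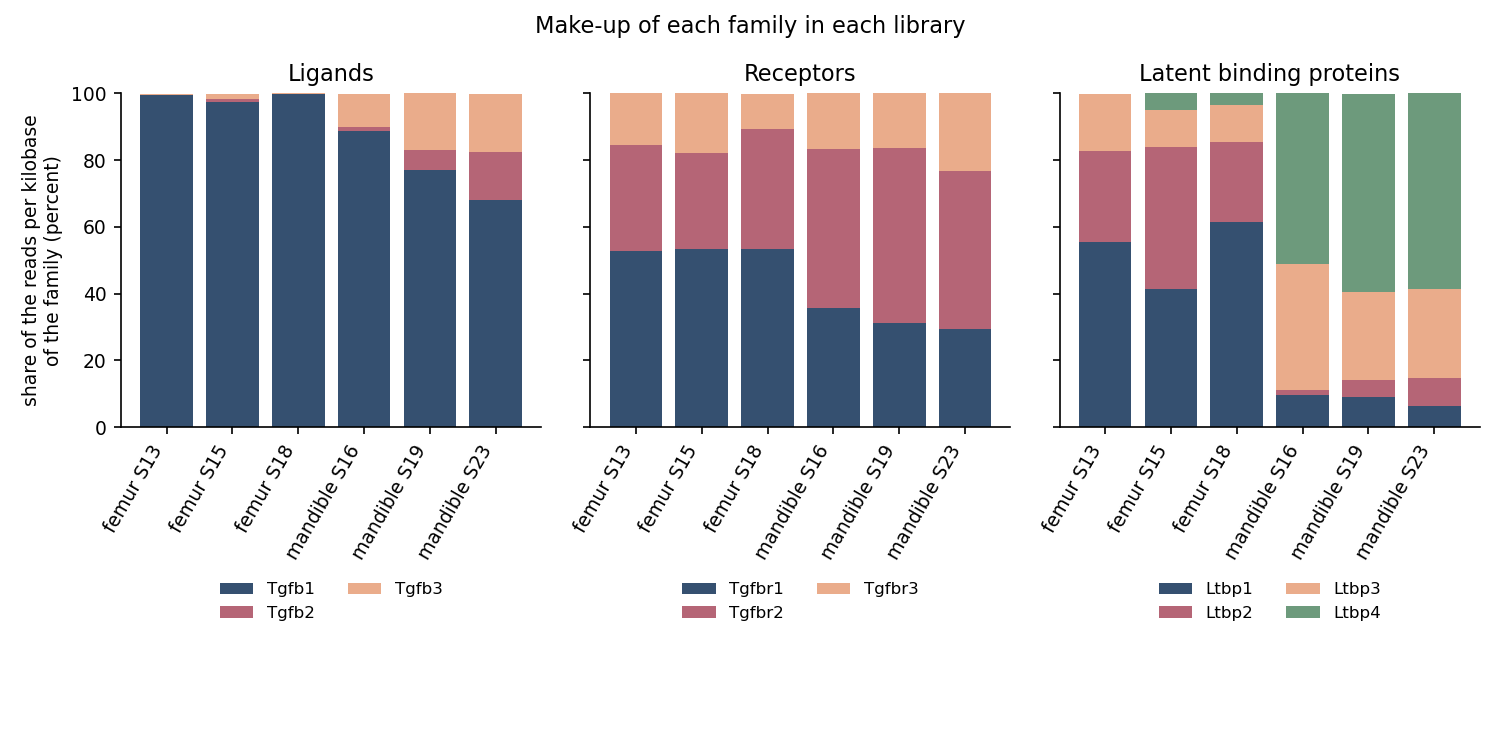
Share of each member in the reads per kilobase of its family (percent, stacked bars) in each of the 6 libraries. Tgfb1 led the ligands throughout, and Tgfbr2 passed Tgfbr1 in the mandible. Ltbp4 and Ltbp3 held most of the LTBP share in the mandible, and Ltbp1 and Ltbp2 most of it in the femur.

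Summed over each family, the ligands were read at 33.1 ± 5.62 RPKM in the femur and 47.7 ± 2.70 RPKM in the mandible, the receptors at 13.4 ± 2.86 and 25.4 ± 1.60 RPKM and the LTBPs at 5.55 ± 1.10 and 22.2 ± 10.1 RPKM (SD, n = 3). The 3 LTBP genes whose products bind latent TGF-β (Ltbp1, Ltbp3 and Ltbp4) were read at 0.128, 0.105 and 0.110 per ligand read in the femur and at 0.303, 0.379 and 0.617 in the mandible, per kilobase. Ltbp4 was the largest part of this LTBP sum in the mandible by its mean, at 12.7 RPKM against 6.39 for Ltbp3 and 1.74 for Ltbp1. In the femur its mean was 0.171 RPKM. The ratio counts the 3 genes alike and does not weigh how well each product binds each ligand. None of these sums and ratios overlapped between the sites, as for 24.2% of single tested genes. The exact two-sided permutation test gave p = 0.1 for each, the smallest it can give here. All of them contain members already called higher, and all were chosen after the values were seen.

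The other genes of the pathway were taken from 6 lists with 82 genes, of which 81 were tested. Of these, 28 were called higher in the mandible and 1 lower, against 3.88% and 1.3% of all tested genes. An unadjusted p under 0.05 was found for 49, against 16.4% of all tested genes, and a log2 fold change above 0 for 72, against 47.8%. The median was 1.43. The lists were chosen with earlier results of these data known, so the excess over all tested genes is not independent evidence. By list the median was 3.85 for proteins that bind TGF-β, 2.78 for microfibril partners, 2.64 for target genes, 0.88 for processing of the latent complex, 0.59 for SMAD genes and 0.49 for accessory receptors, and the mesenchymal, dental and mural markers were higher in the same 3 mandible libraries, where their part was not tested.

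Of 18 genes that process, anchor or activate the latent complex, 5 were called higher and 1 lower. The called genes were Mmp2 and Mmp14, matrix metalloproteinases that can cleave the latent complex, Bmp1, a protease that cuts LTBP1, and Itgav and Itgb5, chains of αv integrins that bind its RGD site. Mmp2 was at 1.27, 2.30 and 1.99 CPM in the femur and 89.5, 192 and 186 CPM in the mandible, a log2 fold change of 6.38 (edgeR, adjusted p = 1.3e-05). The values were 4.14 for Mmp14, 2.76 for Bmp1, 1.88 for Itgb5 and 1.02 for Itgav, and the call of Itgav was lost under 7 of 14 alternatives (among them edgeR without femur S13 or S18 or mandible S19 or S23, adjusted p = 0.17 to 0.19). Itgb3, the β chain shared by the vitronectin receptor and the platelet integrin, was the gene called lower, with 299, 230 and 343 CPM in the femur and 83.5, 79.2 and 111 CPM in the mandible (log2 fold change -1.67, edgeR adjusted p = 0.0051, or 0.056 without mandible S19). The platelet markers were lower in the same libraries. Itgb6 and Itgb8, the chains best known for activating TGF-β, had reads in 1 femur library only, S15, with 46 and 33 counts, and in each mandible library, with 197, 185 and 199 counts for Itgb6 and 32, 3 and 88 counts for Itgb8, and neither was called. Nrros and Lrrc32 encode the membrane proteins that hold latent TGF-β on myeloid cells and on regulatory T cells and platelets. Nrros, the partner on myeloid cells, was at 174 ± 47.2 and 145 ± 34.3 CPM and Lrrc32 at 8.51 ± 3.12 and 2.70 ± 1.25 CPM in femur and mandible (SD, n = 3), with log2 fold changes of -0.26 and -1.65, neither called. The most abundant genes of the list were Itgb3, Thbs1 (log2 fold change -0.18) and Itgb1 (0.48), and the last pair was not called.

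Of 15 partners of LTBPs in microfibrils and elastic fibres, 7 were called higher and none lower, 10 had an unadjusted p under 0.05, and the median log2 fold change was 2.78. Fbn1, the gene of fibrillin-1, was at 18.8, 31.4 and 12.6 CPM in the femur and 107, 171 and 279 CPM in the mandible, a log2 fold change of 3.15 (edgeR, adjusted p = 0.0015). The remaining called genes were Fbn2 (log2 fold change 4.19), Fbln1 (4.99), Fbln2 (5.31), Efemp2 (2.60), Lox (2.60) and Loxl1 (2.78), where Lox and Loxl1 crosslink elastin and collagen. Without mandible S19 the edgeR adjusted p was 0.093 for Fbn2, 0.060 for Fbln2, 0.11 for Efemp2 and 0.051 for Loxl1, and without femur S13 it was 0.060 for Fbn2 and 0.067 for Efemp2. Efemp2 was also lost without femur S18 (0.090) and mandible S23 (0.065). Adamts10, among the most abundant of the list, had a value of -0.42 and was not called.

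Of 8 proteins that bind and hold TGF-β, 5 were called higher and none lower. They were the proteoglycan genes Dcn, Bgn, Fmod, Lum and Aspn. Dcn rose from 4.03, 2.86 and 3.004 CPM to 74.9, 105 and 99.8 CPM, a log2 fold change of 4.82 (edgeR, adjusted p = 1.3e-05). The value was 4.66 for Lum and 2.15 for Bgn. Fmod had 0, 4 and 0 counts and Aspn 0, 1 and 0 counts in the femur, against 836, 832 and 260 counts and 114, 172 and 79 counts in the mandible.

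Of 7 tested accessory receptors, Bambi, a receptor without kinase that inhibits the signal, was called higher (log2 fold change 2.06, edgeR adjusted p = 0.018), while Strap, Nrp1 and Fkbp1a, the most abundant, were not called. Bambi was lost without femur S13 or S18 or mandible S19 or S23 (edgeR adjusted p = 0.061 to 0.10).

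Of 17 SMAD genes and their inhibitors 3 were called higher, namely Ski and Skil, which repress transcription by SMADs, and Pmepa1, a TGF-β target that holds SMADs back. Pmepa1 was at 2.26, 2.17 and 0.839 CPM in the femur and 12.1, 15.7 and 27.7 CPM in the mandible (edgeR log2 fold change 3.39, adjusted p = 0.0051), and Ski and Skil had log2 fold changes of 1.15 and 1.19. Each of these last lost the call under 5 of 14 alternatives. For Ski they included femur S13 (edgeR adjusted p = 0.17) or mandible S16 (0.066), S19 (0.15) or S23 (0.084) left out, and for Skil femur S13 (0.065) or S18 (0.076) or mandible S19 (0.11) or S23 (0.057). Smad2, Smad3 and Smad4, which carry the signal, had log2 fold changes of 0.10, 0.78 and 0.36, and the inhibitory Smad7 had 1.03 (edgeR adjusted p = 0.097), none of them called. Ppm1a, the other abundant gene of the list, had 0.067.

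Of 16 genes that textbooks name as targets of TGF-β, 7 were called higher, namely Col1a1, Col3a1, Postn, Ccn1, Ccn2, Acta2 and Tagln, and none was called lower. Their log2 fold changes ran from 2.03 for Ccn2 to 8.49 for Col3a1, and all 7 are known from the matrix or from contractile mesenchymal cells. Without mandible S19 the edgeR adjusted p was 0.050 for Ccn1, 0.093 for Ccn2, 0.076 for Acta2 and 0.054 for Tagln, each above the 0.05 of a call, and without mandible S23 it was 0.054 for Ccn1, 0.068 for Ccn2 and 0.065 for Acta2. Ccn2 was also lost without femur S18 (0.063) and Acta2 without femur S13 (0.059). Under limma-voom the calls of Ccn1 (adjusted p = 0.094), Acta2 (0.085) and Tagln (0.082) were lost. Tgfbi, a matrix protein that macrophages also make, was at 404 ± 120.1 and 511 ± 131 CPM (SD, n = 3, log2 fold change 0.34) and was not called, nor were Junb (0.93) and Fn1 (0.997, called under DESeq2).

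**Figure D5:**
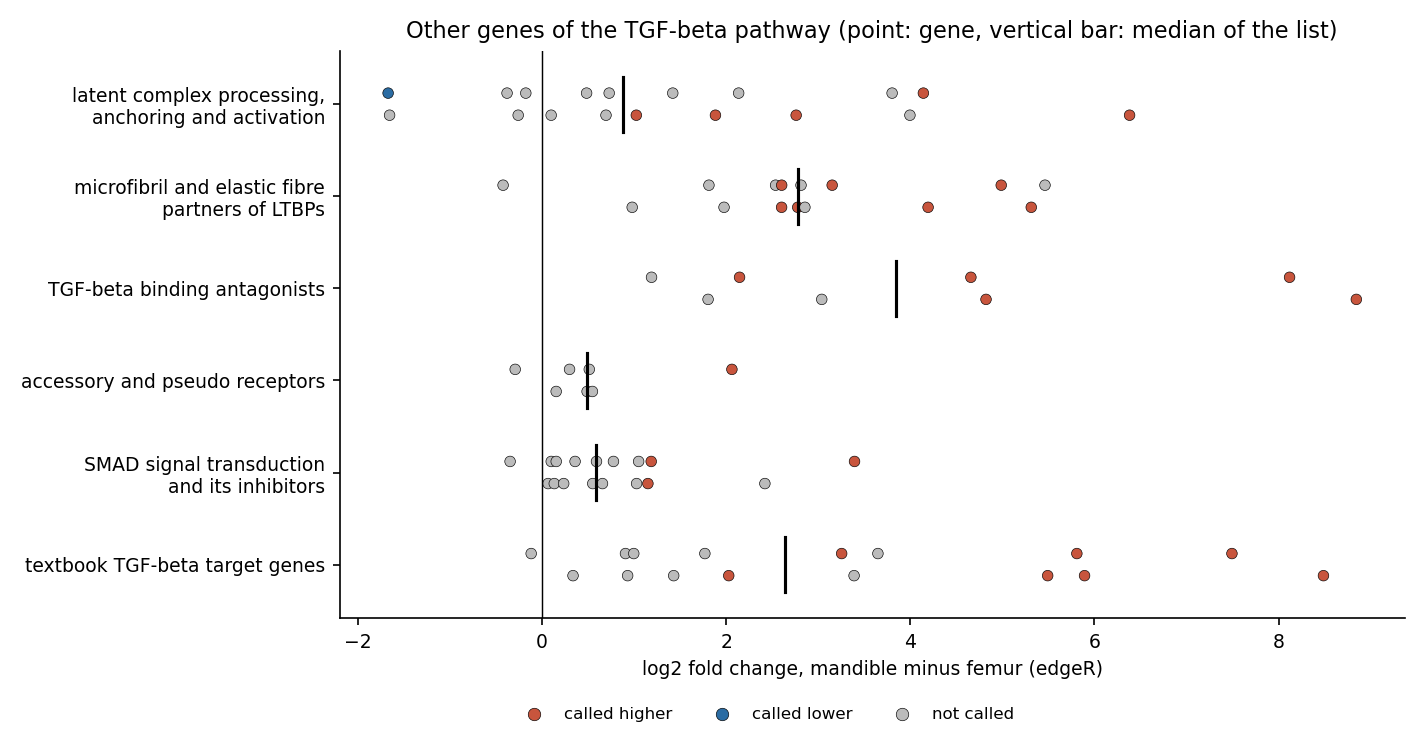
Log2 fold change, mandible minus femur, of the 81 tested genes of 6 lists around the members (1 point a gene, red called higher, blue called lower, grey not called, vertical bar the median of the list). The median ran from 0.49 for the accessory receptors to 3.85 for the TGF-β binding antagonists.

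Genes whose pattern over the 6 libraries was most like that of a member were found by the root-mean-square difference of centred log2 CPM, among 16135 genes with a mean of at least 1 CPM. Since the measure follows both the difference between sites and the spread within them, it describes these 6 libraries only. Ltbp3 was nearest to Epb41l3, Pth1r and Ptprm (0.067, 0.10 and 0.16 on the log2 scale, against a median of 1.70 over all candidates). Ltbp4 was nearest to Tenm3, Lama3 and Gxylt2 (0.41 to 0.47), Tgfb3 to Gpx7, Adamts12 and Pax9 (0.32), and Tgfb2 to Olfml1, Cpz and Nfe2l3 (0.17 to 0.28). Tgfbr2 was nearest to Marcks, Ctsl and Sytl2 (0.13 to 0.20) and Tgfbr3 to S1pr3, Lpin1 and Creb3l2 (0.11). Among the members that were not called, Tgfb1 was nearest to Fpgt, Ncstn and Cdipt, Tgfbr1 to Marchf6, Grsf1 and Cfap36, and Ltbp1 to Tubb2a, Sat1 and Orc4, none of them called. The genes nearest to Ltbp2 were BE692007 and 2 genes listed by identifier only.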

How the data were processed

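RNA of monocyte preparations from femur and mandible was sequenced in 6 libraries, 3 per site. Reads were trimmed by the authors (Trimmomatic), aligned (HISAT2 2.1.0) and assigned to genes (featureCounts), and they deposited the raw counts, not normalized. The methods name GRCm38, but the intervals of the count table lay inside the GENCODE M21 gene for 2979 of 52029 shared genes, so the printed positions are those of M21, matched by Ensembl identifier. Gene lengths were those of the count table and equal the M21 exon lengths for all 10 members. Strand use and multi-mapped reads are not given in the sources used here.

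The test was the quasi-likelihood test of edgeR 4.0.16 under R 4.3.3, without covariates, after TMM scaling and filterByExpr (at least 10 counts, total 15), with a prior of 0.125 counts for fold changes. Genes were called at an adjusted p under 0.05 (Benjamini-Hochberg over 18114 genes) and a difference of 2-fold or more. Single values were also tested by exact two-sided permutation, whose smallest p is 0.1. RPKM values were CPM divided by length in kilobases. The fit was tested on simulated data, but the outcome is not given here and no result above rests on it. The alternatives were DESeq2 1.42.0, limma-voom (limma 3.58.1), RLE and no normalization factors, scaling without mitochondrial, hemoglobin, immunoglobulin and ribosomal RNA genes, 2 other filters, a loess correction (span 0.4) on gene length, and each library left out.

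Named were all members, in each pathway list the called genes and the 3 most abundant genes, in each marker list up to 3 of the most abundant, and for each member the 3 genes most like it. Further genes of the lists, the gene overlapping Ltbp2 and Xist were chosen after their values were seen. These genes of the lists were Itgb6, Itgb8, Nrros, Lrrc32, Smad2, Smad3, Smad4, Smad7, Tgfbi, Junb, Lepr and Cldn5. The members and lists were chosen with earlier results of these data known.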

Additional observations from a re-analysis of the deposited data

How the results depend on the processing

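No paired analysis was possible because the sources used here do not give the animal of a library. If libraries of the 2 sites came from the same mice, that pairing was not modelled. The number of genes called, 938 with all 6 libraries, was 1548 under DESeq2 and 1590 without the filter on low counts, and 434 to 1565 when 1 library was left out (fewest without mandible S19, most without femur S15). Of the members, 6 were called higher, and 3 were when at least 10 counts were required in every library, a filter that Tgfb2, Tgfb3 and Ltbp4 could not pass because of their femur counts. Leaving out 1 library left 3 to 5 members called higher, 3 without mandible S19, and none lower. The length correction left 4 called higher and 1, Ltbp1, lower, and it shifted the median log2 fold change of all genes by -0.11. Of the pathway genes, 28 were called higher, and 16 (without mandible S19) to 34 (without femur S15) when 1 library was left out, and the 1 called lower became 0 without S19. The cause of these changes was not tested. Ltbp3, Ltbp4 and Tgfb3 were called under every alternative that could test them, Tgfbr2 was lost under 2 of 14, Tgfb2 under 6 of 13 and Tgfbr3 under 7 of 14.

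The sign of several genes that were not called turned. Under the length correction it was Tgfb1 (-0.087), Tgfbr1 (-0.20), Nrp1 (-0.039) and Ppm1a (-0.67). When 1 library was left out, Tgfbr1 ran from -0.025 to 0.29, Ltbp2 from -1.66 to 0.082 (0.055 without femur S15), Thbs1 from -0.53 to 0.089, Adamts10 from -0.77 to 0.54 and Ppm1a from -0.20 to 0.26 (-0.016 without mandible S16). The 10 shares kept their direction without length scaling and without any 1 library, and at 3 against 3 libraries none could reach a p under 0.05. Groups of 3 are too small for a test of outlying libraries. Low femur counts of Tgfb2, Tgfb3 and Ltbp4, at most 46 a library, limit the precision of their folds.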
